A study of Mus musculus with 11 samples.

Results

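The cells described here are the Col15a1-positive stem cells of mouse perigonadal white adipose tissue (pgWAT), the fat depot beside the gonads. They were chosen by single-cell read counts, as CPM, the reads of a gene scaled to the cell's total of reads in genes. An adipose stem cell (ASC) was a cell with at least 20 CPM of Pdgfra, the PDGF receptor alpha of fibroblasts and ASC, and under 50 CPM summed over the endothelial genes Pecam1, Cdh5 and Kdr. Members were the ASC with under 10 CPM of Dpp4, under 5 CPM of F3, under 50 CPM of Il6 and at least 20 CPM of Col15a1. The rule found 108 members among 2052 ASC (5.26%, exact 95% interval 4.34 to 6.32) and 3261 cells in all. The other 1944 ASC were sorted into exclusive classes in the order Dpp4 class (Dpp4 at 10 CPM or more, 669 cells), F3 class (F3 at 5 CPM or more, 1179 cells), Il6 class (Il6 at 50 CPM or more, 26 cells) and Col15a1-low class (70 cells). Since these values set the classes, the levels of the 8 rule genes are given as a description, with no test.

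Stromal vascular cells, the cells of fat other than adipocytes, were collected from male and female transgenic Tg(Pdgfrb-eGFP) mice, whose green fluorescence reports Pdgfrb promoter activity, backcrossed to C57BL6/J. The animals were 12 to 20 weeks old, no treatment is given for them, and they gave cells to 11 plates of the full-length Smart-seq2 protocol, which has no molecular identifiers. Males carried the mouse ids 1, 4 and 8 and gave 32, 2 and 27 members. Females carried the ids 2, 3, 5 and 6/7, of which 6/7 stands for 2 animals pooled, and gave 24, 5, 10 and 8 members. Plates were sorted on the reporter, on the endothelial surface protein CD31, or, in mouse 2, on the DPP4 protein as well, and no plate held cells of more than 1 id. Mice 3, 4, 5 and 8 had 1 plate each, so animal and plate cannot be told apart in them. The members of mouse 2 came in equal parts from a plate labelled DPP4-positive (12 cells) and a plate labelled DPP4-negative (12 cells). Both are labelled positive for the reporter as well, but the cell names of the DPP4-positive plate carry the tag used for reporter-negative cells on other plates, so its reporter gate is uncertain. A member held a median of 695202 reads in genes (range 164556 to 1821551), against 678768 in the other ASC, and 81633307 reads were summed over all members.

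Adipose stem cells are fibroblast-like cells of the fat stroma that can divide and turn into adipocytes. Work in several depots has placed progenitors that carry Dpp4, Pi16 and Cd55 beside cells committed to the adipocyte fate, and a further kind that carries F3 (CD142, tissue factor). Col15a1 encodes collagen XV of the basement membrane zone, Cxcl14 a chemokine, and Lpl lipoprotein lipase, which frees fatty acids from circulating lipoproteins. The study marks its committed preadipocytes, ASC1a, by Col15a1, G0s2 and Cxcl14, ASC1b by Clec11a and Fmo2, and ASC2 by Dpp4, Cd55 and Arl4d. It reports that earlier studies sorted ASC1b by CD142. The label of the cells described here uses Col15a1, Cxcl14 and Lpl.

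The label of preadipocyte-like cells was checked against Cxcl14 and Lpl, neither of which the rule used. Lpl stood at 20 CPM or more in 102 of 108 members (94.4%, exact 95% interval 88.3 to 97.9). It reached that level in 96.7% of the F3 class and 92.5% of the Dpp4 class too, so Lpl at this limit marked nearly every ASC. Cxcl14 stood at 20 CPM or more in 28 members (25.9%, 17.97 to 35.2), against 24.2% of the F3 class (21.8 to 26.7) and 4.93% of the Dpp4 class (3.42 to 6.86). No Cxcl14 read was found in 53.7% of members. Both genes reached 20 CPM in 27 members (25%, 17.2 to 34.3), in 23.4% of the F3 class and in 4.48% of the Dpp4 class. One of every 4 members thus carried all 3 marker genes of the label, a share inside the range of the F3 class interval (21.0 to 25.9). Of 714 endothelial cells, 6 held Cxcl14 at 20 CPM or more (0.840%, 0.309 to 1.82), but 66.7% held Lpl at that level, at a median depth of 511280 reads against 695202 in members. Presence of Lpl is therefore not read as a property of members. Intervals cover counting error only. The shares are over cells pooled from all ids and were not tested between classes, and the cells are called Col15a1-positive members below.

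The F3 limit decided which Col15a1-carrying cells were members. Of the 2052 ASC, 1199 (58.4%) held at least 20 CPM of Col15a1, and 1043 of these (87.0%) had F3 at 5 CPM or more. The F3 limit alone left out 726 cells (60.6%), the Dpp4 limit alone 25 (2.09%) and the Il6 limit alone 17 (1.42%). No F3 read was found in 53 members, no Dpp4 read in 78 and no Il6 read in 83. Col15a1 ranged from 21.2 to 1215 CPM over the members, with a median of 162 CPM. Its median was 95.7 CPM in the F3 class and 4.65 CPM in the Dpp4 class. The members nearest the Col15a1 limit held 21.2, 22.4 and 22.5 CPM, and the Col15a1-low cells nearest to it 19.5, 18.5 and 17.1 CPM. At the F3 limit the nearest members held 4.99, 4.74 and 4.69 CPM of F3, and the nearest cells left out by F3 alone 5.21, 5.26 and 5.28 CPM.

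**Figure D1:**
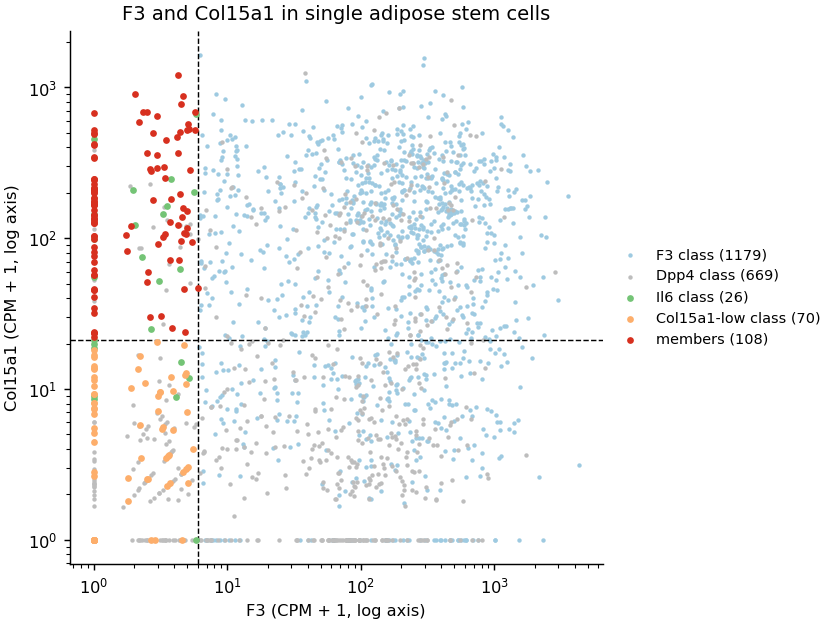
Each point is 1 of the 2052 adipose stem cells, placed by F3 on the x axis and Col15a1 on the y axis (both as CPM + 1 on log axes) and coloured by class, with the 2 limits as dashed lines. The 108 members occupy the upper left corner, while most cells above the Col15a1 limit lie to the right of the F3 limit in the F3 class.

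The share of members among ASC differed widely between mouse ids. It was 15.8% in mouse 1, 0.573% in mouse 4 and 18.6% in mouse 8, the males. In the females it was 3.34% in mouse 2, 1.94% in mouse 3, 11.1% in mouse 5 and 2.76% in mouse 6/7. Mice 1, 8 and 5 stood above the other ids, and both sexes held high and low shares. The member share did not follow the study's own ASC1a clusters in every id. Mouse 1 gave no cell to those clusters, whereas most cells of mouse 4 lay in one of them. All other ids gave cells to them, mouse 8 with its high share included. The members were not matched to these clusters cell by cell. The mean was 11.7% ± 9.72 (SD, n = 3) in males and 4.79% ± 4.25 (SD, n = 4) in females, a difference of 6.89 percentage points (exact permutation test, two-sided p = 0.257). Without mouse 4 the difference was 12.4 points (exact p = 0.0667), and without mouse 8 it was 3.42 points (exact p = 0.733). With 2 males against 4 females this test can give no p below 0.0667. On PDGFRB-sorted plates without a DPP4 gate, which leave out mice 2 and 8, the difference was 3.11 points. That rests on 2 males and 3 females (exact permutation test, p = 0.7, smallest possible p = 0.1).

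F3 detection and ribosomal RNA moved with this share. Members had to hold under 5 CPM of F3, so the rule itself ties the member share to the F3 share. F3 stood at 5 CPM or more in 66.3%, 63.4% and 62.2% of the ASC of mice 1, 8 and 5. In mice 2, 3, 4 and 6/7 it did so in 82.0%, 87.6%, 98.0% and 86.6%. The median share of reads from ribosomal RNA was 65.9%, 58.8% and 52.9% in the ASC of mice 1, 8 and 5, and 32.9%, 30.0%, 30.8% and 35.3% in mice 2, 3, 4 and 6/7. The 3 ids with the highest member shares among ASC were thus the 3 with the most ribosomal RNA and the least F3, with no overlap in either value. Within an id the members and the other ASC lay close, with 66.3% and 65.9% in mouse 1, 56.7% and 59.2% in mouse 8, 58.4% and 52.3% in mouse 5 and 36.7% and 32.8% in mouse 2. Endothelial cells, which should lack F3, held an F3 read in 70 of 714 cells (9.80%, median depth 511280 reads) and 5 CPM or more in 22. In mice 3 and 4, however, 7 of 7 and 2 of 2 cells classed as endothelial held F3 reads. That class needed at least 50 CPM summed over the endothelial genes and under 20 CPM of Pdgfra. The study placed no cell of either id in an endothelial cluster, so the identity of these cells is uncertain. In mice 3 and 4, 19.8% and 22.1% of the ASC lay between 5 and 20 CPM of F3, against 2.22 to 13.8% in the other ids. With CPM taken over reads outside ribosomal RNA the sex difference in the share was 6.08 points, and with an F3 limit of 20 CPM it was 6.86 points. The shares of the low ids rested on the F3 limit: at 20 CPM mouse 4 had 8.02%, mouse 3 8.14%, mouse 2 7.24% and mouse 6/7 6.21%, against 12.2 to 19.3% in mice 1, 8 and 5. With every cell thinned to 150000 reads, mouse 4 had 2.57% and mouse 3 3.24%. Without any F3 limit the share was 45.8% in males and 37.8% in females, a difference of 8.05 points (exact permutation test, p = 0.229). The part of ribosomal RNA in the lower F3 detection was not tested beyond these alternatives.

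**Figure D2:**
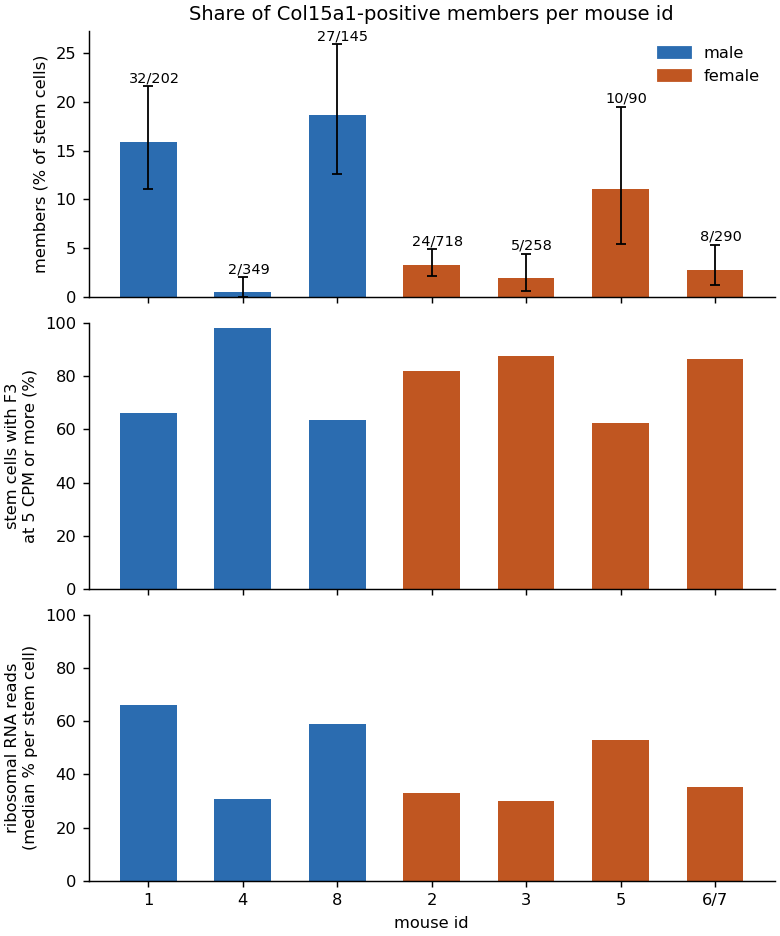
Bars give, for each mouse id on the x axis, the share of adipose stem cells that were members (top, with exact 95% intervals and cell counts), the share with F3 at 5 CPM or more (middle) and the median share of ribosomal RNA reads (bottom), all in percent. Mice 1, 8 and 5 have the highest member shares (15.8%, 18.6% and 11.1%), the lowest F3 shares and the highest ribosomal shares. The rule itself ties the member share to the F3 share.

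The promoters of 4 genes are shown because Col15a1 names the cells, Fmod and Edn1 headed the comparison with the Dpp4 class in either direction, and Pi16 is a progenitor marker that was lower. The sequences are the 150 bases before the transcript start from RefSeq on GRCm38.p6, each on the plus strand, and the Pi16 start used by RefSeq lies inside the GENCODE gene (chr17:29317680-29330593). A CCAAT word is in capitals. Col15a1 lies at chr4:47207862-47208011, Fmod, higher in members, at chr1:134037104-134037253, Pi16, lower in members, at chr17:29318732-29318881, and Edn1, lower in members, at chr13:42301326-42301475.
Col15a1: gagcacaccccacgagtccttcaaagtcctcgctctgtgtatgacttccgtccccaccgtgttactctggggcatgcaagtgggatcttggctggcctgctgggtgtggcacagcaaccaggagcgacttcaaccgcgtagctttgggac
Fmod: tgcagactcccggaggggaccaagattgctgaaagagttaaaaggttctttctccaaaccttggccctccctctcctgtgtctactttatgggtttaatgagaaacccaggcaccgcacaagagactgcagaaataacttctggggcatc
Pi16: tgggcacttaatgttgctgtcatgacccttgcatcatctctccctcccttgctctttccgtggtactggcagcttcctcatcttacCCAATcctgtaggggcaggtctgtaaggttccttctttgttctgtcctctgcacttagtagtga
Edn1: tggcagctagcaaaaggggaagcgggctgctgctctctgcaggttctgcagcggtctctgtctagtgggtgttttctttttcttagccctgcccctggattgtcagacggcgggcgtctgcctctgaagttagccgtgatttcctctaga
The words TATAAA and CCAAT, which do not overlap each other, were searched on both strands of the 250 bases before the start. Pi16 carried a CCAAT word 64 bases before its start, and the 3 other stretches shown carried neither word. TATAAA was found in 13.0% of 27025 promoters and CCAAT in 34.5%. Promoters were matched for 30 of the 46 genes called higher in members than in the Dpp4 class and for 36 of the 57 called lower. TATAAA was in 16.7% and CCAAT in 16.7% of the former, and in 8.33% and 27.8% of the latter. Among the 4392 matched genes of that test the shares were 6.44% and 35.6%. These matches describe letters and not binding.

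Members and the Dpp4 class were compared within the animals that had at least 10 cells of both, mice 1, 2, 5 and 8, on reads summed per animal and class, to ask which genes separate them besides the rule genes. Of 5721 genes tested, 103 were called at an adjusted p below 0.05 (1.8%, edgeR quasi-likelihood test with the mouse as a block), 46 higher in members (0.804%) and 57 lower (0.996%). Unadjusted p was under 0.05 for 754 genes. The progenitor markers of the Dpp4-positive ASC2 formed the clearest group. All 12 of these genes outside the rule were tested and 10 were lower in members, with a median log2 fold change of -2.83 beside -0.05 over all genes tested. The list was chosen with earlier results of these data known and the rule set Dpp4 low, so the count is not independent evidence of its direction. The call count rests on few animals: without mouse 2, 259 of whose 266 Dpp4-class cells came from the DPP4-sorted plate, 2 of 3532 genes were called. It was 14, 15 and 49 without mice 1, 5 and 8, and 2 without the block. Within the 4 plates that held at least 10 cells of each class, with the plate as the block, 45 of 5358 genes were called, 40 of them among the 103. Pi16, Cd55, Cd248, Lpl, Sparcl1, Fmod, Edn1, Adamts16, Ackr2, Opcml and Jun were among the 45, and Fabp4, Apoe, Ednra, Tmem176b, Dact2 and Fos were not (adjusted p = 0.0529 to 0.380, edgeR). All 103 genes kept their direction in each fit that tested them.

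Pi16, a secreted peptidase inhibitor of progenitors, stood at 71.1, 139, 98.3 and 13.4 CPM in the members of mice 1, 8, 2 and 5. In the Dpp4 class of the same mice it stood at 784, 1006, 1598 and 1222 CPM. The groups did not overlap, and Pi16 was lower in members by log2 fold change -3.98 ± 0.55 (SE, adjusted p = 0.0181, edgeR). Cd55, a surface protein that restrains complement, stood at 33.6, 51.3, 71.6 and 99.3 CPM in members and at 260, 194, 674 and 875 CPM in the Dpp4 class (log2 fold change -2.65 ± 0.28, adjusted p = 0.00929, edgeR). Cd248, the surface protein endosialin, stood at 765, 768, 1398 and 641 CPM against 4182, 2175, 3912 and 3452 CPM (log2 fold change -1.80 ± 0.20, adjusted p = 0.0106, edgeR). The other progenitor genes that were lower were Sema3c, Anxa3, Dact2, Pcolce2, Efemp1, Ly6c1 and Bmp7. Arl4d (-3.24 ± 0.82) and Wnt2 (-2.28 ± 1.21) were not called (adjusted p = 0.117 and 0.489, edgeR).

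The genes with the largest falls were low in nearly all members. Edn1 (GRCm38 chr13:42301476-42307990), which encodes the vasoconstrictor peptide endothelin-1, stood at 0.0740, 0.0988, 0.457 and 0 CPM in members of mice 1, 8, 2 and 5. In the Dpp4 class Edn1 stood at 21.3, 20.3, 43.1 and 9.75 CPM (log2 fold change -7.41 ± 0.75, adjusted p = 0.00929, edgeR). Adamts16, a metalloprotease of the matrix, averaged 1.13 CPM ± 1.92 against 80.8 ± 35.7 CPM (SD, n = 4), and Dact2, a regulator of WNT and TGF-beta signals, 0.240 ± 0.316 against 24.4 ± 13.5 CPM. Ackr2, a decoy receptor that removes chemokines, averaged 3.00 ± 2.31 against 121 ± 21.3 CPM, and Opcml, a membrane-anchored adhesion protein, 1.27 ± 1.13 against 43.0 ± 25.9 CPM. In each of these 5 genes every member sum lay below every sum of the Dpp4 class.

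Of 10 preadipocyte markers tested among 12 outside the rule, 4 were higher in members than in the Dpp4 class and none lower, with all 10 log2 fold changes above 0 and a median of 1.62. Col15a1, a gene of the same list, was set high in members by the rule, and Dpp4 was set low. The list was also chosen with earlier results of these data known, so its direction is not independent evidence. With RLE size factors 3 of the 10 were called. For Apoe, Fabp4, Lpl and Sparcl1 the call was lost in 8, 7, 5 and 4 alternatives and kept in 3, 3, 6 and 7. Lpl stood at 444, 407, 4082 and 555 CPM in the members of mice 1, 8, 2 and 5, and at 129, 113, 890 and 433 CPM in their Dpp4 class. The groups overlapped across animals, but Lpl was higher in members in 4 of 4 (log2 fold change 1.72 ± 0.26, adjusted p = 0.0244, edgeR). Fabp4, the fatty acid carrier of adipocytes, stood at 46.0, 8.15, 322 and 11.99 CPM against 3.26, 1.06, 7.91 and 4.41 CPM (log2 fold change 3.59 ± 0.58, adjusted p = 0.0264, edgeR). In mouse 2, where nearly all Dpp4-class cells were on the DPP4-positive plate, members held 34.6 CPM of Fabp4 on that plate and 542 CPM on the DPP4-negative one, and within plates Fabp4 had 2.85 (adjusted p = 0.0641, edgeR). Apoe, a lipoprotein component, stood at 772, 189, 1271 and 406 CPM against 22.3, 4.83, 328 and 104 CPM (log2 fold change 3.73 ± 0.72, adjusted p = 0.0493, edgeR). Sparcl1, a matrix protein related to SPARC, was higher by 1.31 ± 0.18 (adjusted p = 0.0179, edgeR). Cxcl14 did not pass: it stood at 19.9, 23.3, 140 and 26.3 CPM in members and at 3.75, 21.1, 9.48 and 10.8 CPM in the Dpp4 class (log2 fold change 2.10 ± 0.58, adjusted p = 0.150, edgeR). Within plates Cxcl14 had 0.54 (adjusted p = 0.904, edgeR). G0s2, an inhibitor of triglyceride breakdown, had 1.09 ± 0.88 (adjusted p = 0.680), and Pparg, the master regulator of adipogenesis, 1.55 ± 0.63 (adjusted p = 0.342, edgeR).

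**Figure D3:**
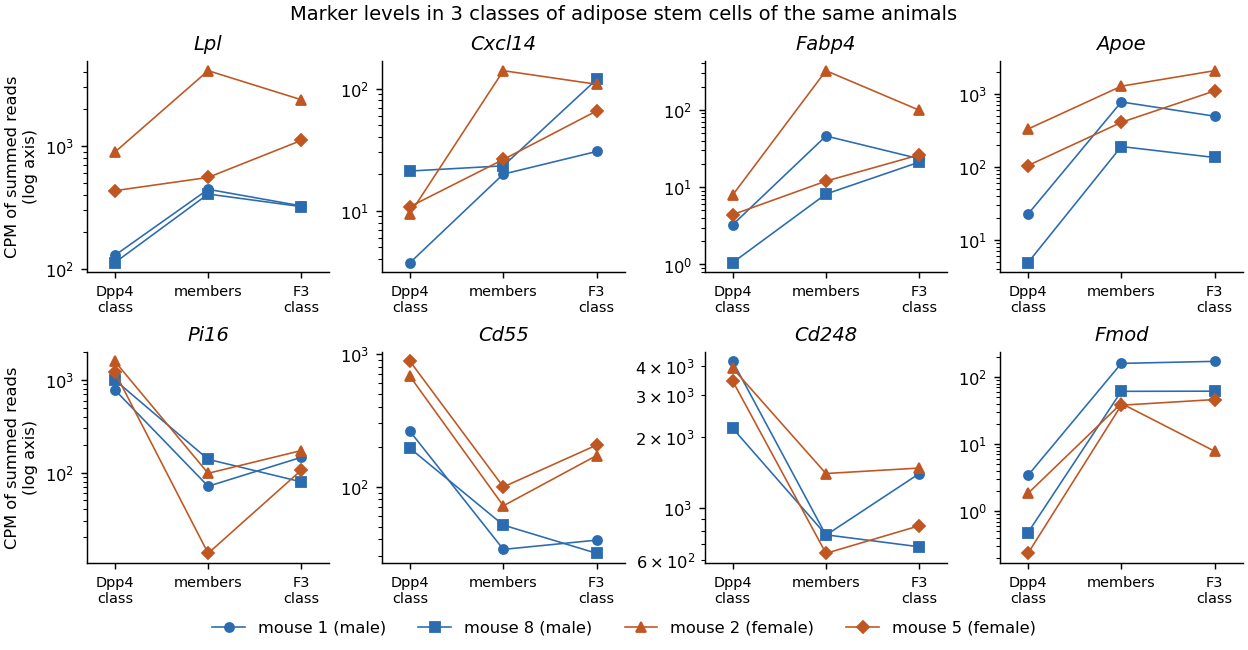
Lines join the levels of 8 genes (CPM of summed reads on log y axes) in the Dpp4 class, the members and the F3 class of mice 1, 8, 2 and 5, with males in blue and females in orange. Pi16, Cd55 and Cd248 are lower and Lpl, Fabp4, Apoe and Fmod higher in members than in the Dpp4 class of every animal, while levels in members and the F3 class cross between animals.

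A minority of the lipid genes tested were called, beside 0.804% of all genes tested called higher. Lpl, Fabp4 and Apoe among them also belong to the preadipocyte list above. Of 21 lipid uptake and storage genes tested among 29, 4 were higher in members than in the Dpp4 class, Lpl, Fabp4, Apoe and the fatty acid transporter Slc27a1, and the list's median log2 fold change was 0.25. With RLE size factors 3 of the 21 were called higher. Slc27a1 averaged 31.7 CPM ± 30.6 in members and 6.02 ± 6.15 CPM in the Dpp4 class (SD, n = 4, adjusted p = 0.0438, edgeR). None of 13 adipogenic transcription factors tested among 21 was called (median 0.28), nor any of 8 steroid receptors and enzymes (median 0.65), of 13 insulin and IGF genes (median 0.84) or of 7 CD142 markers (median 1.00). Unadjusted p was under 0.05 for 6, 1, 6 and 2 genes of these lists. None of the 10 mature adipocyte genes reached the count limit.

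Matrix genes split in both directions. Of 23 fibrillar and interstitial matrix genes tested among 25, 3 were higher and 3 lower in members than in the Dpp4 class. Over all genes tested, 0.804% were called higher and 0.996% lower. Fmod (GRCm38 chr1:134037254-134048277), the collagen-binding proteoglycan fibromodulin, stood at 160, 61.1, 40.4 and 38.0 CPM in members of mice 1, 8, 2 and 5, and at 3.41, 0.480, 1.84 and 0.235 CPM in the Dpp4 class (log2 fold change 6.04 ± 0.60, adjusted p = 0.00929, edgeR). Over all ids, Fmod reads were found in 38 of 108 members (35.2%), in 26.2% of the Dpp4 class and in 37.0% of the F3 class. The median cell of each of these classes held 0 CPM of Fmod, so its sums rest on a minority of cells. The collagen VI genes Col6a1 and Col6a3 were higher by 1.31 ± 0.21 and 1.03 ± 0.19. Lower were Fbn1, fibrillin-1 of the microfibrils (-2.19 ± 0.27), its partner Mfap5 (-1.87 ± 0.23) and Col14a1 (-1.71 ± 0.19). None of 15 basement membrane genes outside the rule was called (median 0.45), although 7 had an unadjusted p under 0.05. The collagen IV genes Col4a1 and Col4a2 had log2 fold changes of 0.88 ± 0.20 and 0.82 ± 0.18 (adjusted p = 0.0827 and 0.0784, edgeR).

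The lists of signalling and activation genes held calls in both directions, beside 0.804% of all genes tested called higher and 0.996% lower. Ednra, the receptor of endothelin-1, stood at 78.6, 0.593, 67.4 and 178 CPM in members of mice 1, 8, 2 and 5, and at 0.951, 0, 6.22 and 4.82 CPM in the Dpp4 class (log2 fold change 5.25 ± 0.66, adjusted p = 0.0153, edgeR). The receptor was thus higher and its ligand Edn1 lower in members than in the Dpp4 class. In mouse 8, however, Ednra was near 0 in both classes (0.593 and 0 CPM). Within plates its call was lost (log2 fold change 4.88, adjusted p = 0.0929, edgeR), and no signal between the classes was tested. Tmem176b, a membrane protein of immune and stromal cells, and Olfm2, a secreted olfactomedin, completed the leading genes that were higher, with 5.20 ± 0.83 and 4.85 ± 0.65. Of 17 BMP and TGF-beta genes tested among 30, the receptor Tgfbr2, the ligand Bmp7 and the BMP-binding Fstl1 were lower. Of 11 vascular niche ligands tested among 22, Thbs1, thrombospondin-1, was higher (1.97 ± 0.22) and Sema3c lower. Of 12 WNT genes tested among 24, the antagonist Sfrp1 was higher (2.49 ± 0.48), a call that was lost with RLE size factors. Of 8 chemokines tested among 15, the membrane chemokine Cxcl16 was higher (2.45 ± 0.36), although the list's median was -0.65. Of 17 activation and immediate early genes tested, Fos, Fosb, Jun and Zfp36 were higher, by 1.09 to 2.03. They encode transcription factors and an mRNA decay factor that cells induce within minutes of a stimulus, tissue dissociation included. Of 7 identity markers tested, Ly6a (Sca-1) was lower (-1.05 ± 0.18).

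Smooth muscle reads moved with this comparison. The 3 mural genes tested had a median log2 fold change of 3.57 without a call (Acta2 3.57 ± 1.42, adjusted p = 0.328, edgeR). The summed level of the 8 mural markers was 332, 25.3, 991 and 43.5 CPM in members of mice 1, 8, 2 and 5, and 10.6, 5.28, 9.79 and 29.4 CPM in their Dpp4 class. In mouse 2 a single member held 98.2% of it, at 11027 CPM, whereas in mouse 1 12 of 32 members lay above 200 CPM. The part of these reads in the calls was not tested for the Dpp4 comparison. Markers of other classes were low in members: 2.34 to 16.2 CPM for 7 blood endothelial genes, of which the rule used 3, 3.65 to 9.53 CPM for 8 macrophage genes, 0.0494 to 0.703 CPM for 8 mesothelial and epithelial genes, 0 to 1.38 CPM for 3 lymphatic genes (Prox1 at 0) and 1.48 to 17.1 CPM for 10 mature adipocyte genes (Adig at 0).

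Members and the F3 class were compared in the same 4 animals to ask what separates them beyond F3 itself. None of 6964 genes was called (0%, edgeR quasi-likelihood test), with 310 at an unadjusted p under 0.05, and DESeq2 called 25. Leaving out any 1 of the 4 animals left 0 calls. Of 11 preadipocyte markers tested, 5 lay above 0 with a median log2 fold change of -0.00098 beside -0.06 over all genes, so the ASC1a list did not lean to members. Cxcl14 had -0.79 ± 0.39, Lpl 0.34 ± 0.25 and Pparg -0.42 ± 0.52 (adjusted p = 0.979, 0.979 and 0.982, edgeR), and Lpl was at 326, 322, 2369 and 1110 CPM in the F3 class of mice 1, 8, 2 and 5. The standard errors bound these values loosely and do not show that the classes are alike.

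All 8 CD142 markers tested lay below 0 in members against the F3 class, with a median of -0.85, and none was called. F3 itself encodes CD142, and the rule set it low in members. The list was also chosen with earlier results of these data known, so its direction is not independent evidence. Clec11a, a secreted growth factor of skeletal stem cells, stood at 9.77, 7.26, 43.6 and 36.4 CPM in members and at 23.6, 17.3, 116 and 85.9 CPM in the F3 class, lower in 4 of 4 animals (log2 fold change -1.11 ± 0.23, unadjusted p = 0.00129 and adjusted p = 0.979, edgeR). Mgp, matrix Gla protein, had -0.94 ± 0.28 and Gdf10, a TGF-beta family ligand, -0.77 ± 0.47. Cxcl1, a neutrophil chemokine, had the smallest p of all genes with -1.56 ± 0.24 (unadjusted p = 0.000157, adjusted p = 0.979, edgeR). Cxcl1 stood at 10.6, 73.1, 163 and 16.8 CPM in members and 47.5, 222, 321 and 78.8 CPM in the F3 class. The rule capped Il6, another activation gene, in members and not in the F3 class. Of 24 matrix genes tested, 8 had an unadjusted p under 0.05 and all 8 were higher in members, among them Mfap4 with 1.04 ± 0.22 and Col6a2 with 0.50 ± 0.11. The 9 progenitor markers tested lay below 0 with a median of -0.40.

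**Figure D4:**
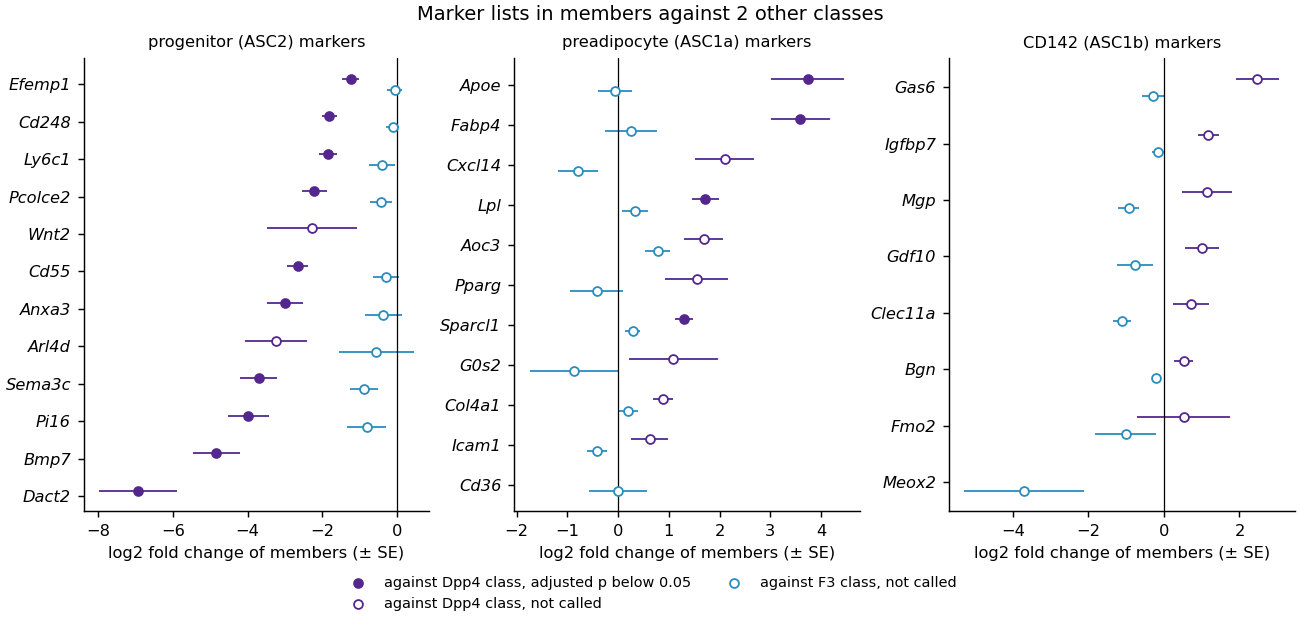
Points give the log2 fold change of members (x axis, ± SE) for the genes of 3 marker lists against the Dpp4 class (purple) and the F3 class (blue), filled where the adjusted p was below 0.05. Against the Dpp4 class, 10 progenitor genes are filled to the left and 4 preadipocyte genes to the right, whereas no gene is filled against the F3 class.

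Against all other ASC together, in the same 4 animals, 0 of 8962 genes were called (0%, edgeR quasi-likelihood test), with 592 at an unadjusted p under 0.05. The edgeR likelihood ratio test called 76, DESeq2 159 (42 higher and 117 lower) and limma 4. The smallest adjusted p was 0.314, for Ackr2 (log2 fold change -4.25 ± 0.55), Cxcl1 (-1.31 ± 0.18), Adamts16 (-5.77 ± 0.82) and Edn1 (-6.17 ± 0.89). The other ASC are a mixture of classes whose makeup differs by animal and plate: in mouse 2 the Dpp4 class made up 266 of 694 cells, in mouse 8 30 of 118. Of the 12 progenitor markers, 11 had an unadjusted p under 0.05, all lower, with a median of -1.72. Of 24 matrix genes, 12 were higher and 3 lower at an unadjusted p under 0.05. With the F3 limit left out of the rule, which adds most F3-class cells to the members, 337 genes were called over all 7 ids (142 higher, 195 lower).

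The Col15a1-low class differs from members in the rule by Col15a1 alone, and could be compared in mice 1 and 8 only. None of 1655 genes was called (0%, edgeR quasi-likelihood test), 125 had an unadjusted p under 0.05 and DESeq2 called 34. Pi16 stood at 310 and 385 CPM in the Col15a1-low class of mice 1 and 8, against 71.1 and 139 CPM in members (log2 fold change -1.85 ± 0.37, adjusted p = 0.500, edgeR). Thbs1 had the smallest p, with 55.3 and 541 CPM in members against 8.95 and 54.3 CPM (log2 fold change 2.93 ± 0.40, adjusted p = 0.395, edgeR). No mouse id held 10 cells of the Il6 class, so that comparison has no test.

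Male and female members were compared on the sums of mice 1 and 8 against mice 2 and 5. Of 2269 genes tested, 7 were called at an adjusted p below 0.05 and a fold change above 2.6 (0.309%, edgeR quasi-likelihood test), 5 higher in males (0.22%) and 2 lower (0.0881%), and 278 had an unadjusted p under 0.05. Sult1e1 (GRCm38 chr5:87575969-87591594), the sulfotransferase that inactivates estrogens, had 360 and 93.2 CPM in the members of the males 1 and 8. Not 1 Sult1e1 read was found in the 34 female members, while 55 of 59 male members held 11617 reads, at least 2145-fold higher against a floor of 3 reads over the female members (adjusted p = 0.00964, edgeR). Hp, haptoglobin, had 44.3 and 43.8 CPM in males and 1 read in all in females. C7, a terminal complement component, stood at 460 and 154 CPM in males and 1.52 and 0 CPM in females 2 and 5. Ace, angiotensin-converting enzyme, stood at 212 and 150 against 5.03 and 3.38 CPM (log2 fold change 6.20 ± 0.67, adjusted p = 0.00964, edgeR). Trf, transferrin, stood at 911 and 710 against 40.9 and 13.7 CPM (5.77 ± 0.78, adjusted p = 0.0223, edgeR).

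The genes higher in female members were Emb and Xist. Emb (GRCm38 chr13:117208536-117274415), the adhesion protein embigin, stood at 62.0 and 210 CPM in females 2 and 5 and at 0.370 and 0.198 CPM in males (log2 fold change -8.32 ± 1.12, adjusted p = 0.0223, edgeR). Emb reads were found in 17 of 34 female and 7 of 59 male members. Xist, the RNA of X inactivation, stood at 241 and 364 CPM in females and at 0 and 0.0494 CPM in males, which matches the labelled sex. It is named outside the rule for named genes, as no protein-coding gene. The male and female values did not overlap in any of the 7 genes over these 4 ids. The ids with under 10 members, left out of the test, held 540 CPM of Sult1e1 in male 4 and no read in females 3 and 6/7, but Trf overlapped, at 87.4 CPM in male 4 and 132 CPM in female 6/7. The ribosomal share differed between these sums as well, with medians of 66.3% and 56.7% in males 1 and 8, and 36.7% and 58.4% in females 2 and 5. The median log2 fold change over all genes was 0.11, and it was -0.67 when totals alone set the scale. Leaving out male 8 left 0 calls, leaving out female 2 gave 51, and every call that could be tested kept its direction.

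**Figure D5:**
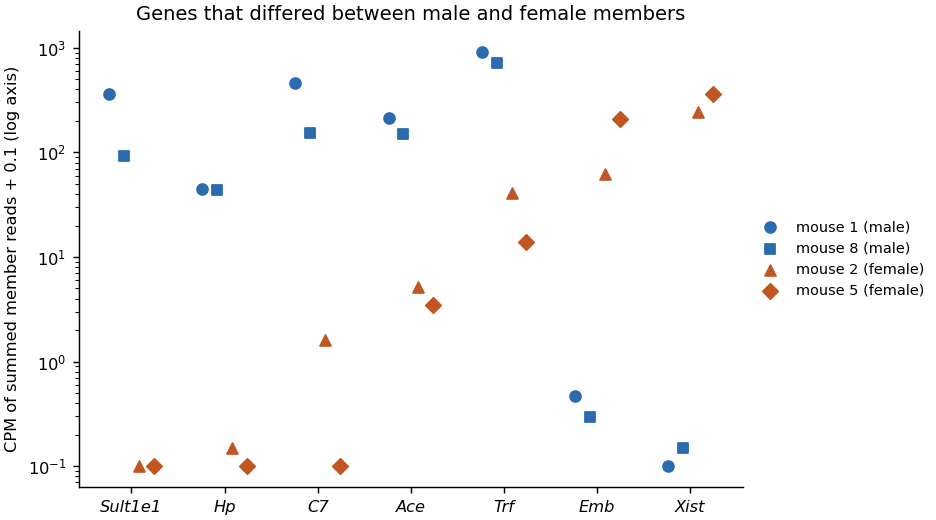
Points give the level of 7 genes (CPM of summed reads plus a small constant, log y axis) in the members of the males 1 and 8 (blue) and the females 2 and 5 (orange). Sult1e1, Hp, C7, Ace and Trf lie higher in both males, Emb and Xist higher in both females.

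Among the gene lists, 1 called gene (Sult1e1) belonged to the 5 steroid genes tested between the sexes, and no other list held a call. Of 14 basement membrane genes, 13 lay above 0 in males with a median log2 fold change of 1.08, but with totals alone as the scale all such medians shift down with that of all genes. Lamb2, laminin beta 2, averaged 407 CPM in males and 59.2 CPM in females (3.60 ± 0.63, adjusted p = 0.0740, edgeR). Sfrp4, a WNT antagonist, averaged 6.55 and 209 CPM (-4.36 ± 0.74, adjusted p = 0.0725, edgeR). Whether the difference between members and other ASC depended on sex was tested as an interaction. None of 8962 genes was called (0%, edgeR quasi-likelihood test), 397 had an unadjusted p under 0.05 and DESeq2 called 70. Among the called sex genes, Sult1e1 differed outside the members too: it stood at 392 and 136 CPM in the F3 class of mice 1 and 8, and at 0.189 and 0 CPM in mice 2 and 5. Sult1e1, C7, Ace and Xist also belong to the study's core set of sexually dimorphic ASC genes. The study drew that set from these single cells and from separate bulk samples.

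The members varied strongly between animals and between plates of 1 animal. In mouse 2 the 12 members of the DPP4-negative plate held 5234 CPM of Lpl and those of the DPP4-positive plate 2577 CPM. Cxcl14 stood at 248 and 0.234 CPM on these plates, and 11 of 12 and 2 of 12 members held a Cxcl14 read. Fabp4 stood at 542 and 34.6 CPM, Cd36, a fatty acid receptor, at 610 and 7.85 CPM, and Pparg at 80.1 and 9.61 CPM. Pi16 ran the other way, at 36.9 CPM on the DPP4-negative and 178 CPM on the DPP4-positive plate, while Col15a1 was at 321 and 361 CPM. With 1 plate of each sort there is no test. Over all members the 10% of cells with the highest values held 80.0% of summed Cxcl14 CPM, 81.4% of Fabp4, 96.1% of Fmod and 31.9% of Col15a1. For Fmod this share was 96.6% in the F3 class and 91.9% in the Dpp4 class.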

How the data were processed

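Single cells from the stromal vascular fraction of pgWAT were sequenced with Smart-seq2 in 3 male and 4 female mouse ids. The authors aligned reads with STAR to mm10, quantified genes with Salmon and imported them with tximport, and versions are not given in the sources used here. The deposited table holds whole-number read counts per gene and cell, not normalized, after the authors removed low-quality and mixed cells, and doublets were not called again. It held 23507 gene rows, of which 23461 matched the annotation, and 72 ERCC spike-in rows (1.98% of reads), which stayed out of totals and tests. Cells had 141935 to 3526227 reads in genes. Intervals are exact binomial ones and cover counting error only.

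Counts were summed per mouse id and class with at least 10 cells. Genes above 600 counts in at least 2 sums were tested two-sided in edgeR 4.0.16 (quasi-likelihood F test, TMM factors, Benjamini-Hochberg adjustment), with the mouse as a block because both sums came from 1 animal. The 8 rule genes were left out of the tests. CPM of a sum are relative to all gene reads, ribosomal RNA included. Named genes were up to 5 protein-coding genes (8 between the sexes) in each direction with the largest fold change among calls, moving the same way in every mouse and at 20 CPM or more, besides the genes of the lists. The members and lists were chosen with earlier results of these data known. The tests were tested on simulated data. Alternatives used other scalings, filters and membership rules, limma 3.58.1 and DESeq2 1.42.0 (R 4.3.3, Python 3.11.15, scipy 1.17.1).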

Additional observations from a re-analysis of the deposited data

Results flagged for a closer look

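Of 34 groups of 4 or 7 mouse ids, 11 held a value far from the others by Dixon's ratio. Its limit flags about 5% of groups when values are independent and normally distributed. The groups here overlap in cells and mice, so 5% is not their chance rate. In the members of mouse 2 the levels of 8 genes stood far above the 3 other ids: Lpl at 4082 CPM, Cxcl14 at 140 CPM, G0s2 at 347 CPM, Fabp4 at 322 CPM, Cd36 at 349 CPM, Pparg at 49.5 CPM, Plin2 at 525 CPM and Cd248 at 1398 CPM. These genes share the same cells and are not separate observations. The F3 class of mouse 2 also held the highest levels of Lpl (2369 CPM) and Cd36 (43.9 CPM) among the 4 ids. Mouse 1 was highest for Adamts16 at 4.00 CPM and mouse 5 for Cxcl16 at 566 CPM. Among the females, mouse 5 had the highest share of members among ASC, at 11.1%.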

How the results depend on the processing

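Against the Dpp4 class, 103 genes were called; RLE size factors gave 100, totals alone 137 (48 higher, 89 lower), DESeq2 460 (200 and 260), a filter of 10 counts 28, no replicate block 2, the plate as the block 45 (17 and 28), sums of 5 or more cells 100, and leaving out 1 mouse 2 to 49. Of these calls 102 were shared with DESeq2 and 70 with the sums of 5 cells. Against the other ASC, where 0 were called, DESeq2 gave 159, the likelihood ratio test 76, limma on mean CPM 4, an F3 limit of 20 CPM 1 and no F3 limit 337, while no replicate block changed nothing. DESeq2 gave 25 against the F3 class and 34 against the Col15a1-low class, where sums of 5 cells gave 2. Between the sexes 7 were called, against DESeq2 85 (661 genes without an adjusted p), the likelihood ratio test 62, no filter 205, a filter of 10 counts 0, Col15a1 at 50 CPM 14, no F3 limit 102, CPM without ribosomal RNA 14, an F3 limit of 20 CPM 28, and 0 to 51 without 1 mouse. The interaction had 70 calls by DESeq2 and 0 to 2 without 1 mouse. The cause of these changes was not tested, except that alternatives of the rule add or drop cells and filters change how many genes are tested. The share difference of 6.89 points lay between 3.11 and 8.05 in its other alternatives and between 3.42 and 12.4 without 1 mouse. For single genes and the alternatives run, 1108 values kept direction and side of the threshold, 97 changed sign without having been called, 103 lost and 30 gained a call, and no called value changed sign. The F3 limit, the ribosomal RNA alternatives, the sums of 5 cells and the mouse or plate block for single classes were chosen after seeing the data. Leaving out a mouse could not be fitted for the Col15a1-low class, and a sex fit on PDGFRB-sorted plates, with 1 sum per sex, was not run. Mice 3, 4 and 6/7, with 2 to 8 members, limit what depth can show.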
